A study of Mus musculus with 13 samples.

Results

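The genes of the proteasome were followed through a mouse model of acute liver failure. Members were the protein-coding genes whose symbol is Psma to Psmg followed by a number, which gave 50 of the 54532 genes in the deposited table. Of these, 48 passed the filter on low counts and were tested among 14280 genes. Members were picked by gene name and type alone, though with earlier results of these data known. The contrast of interest was between 5 inducible genes (Psmb8, Psmb9, Psmb10, Psme1 and Psme2) and 31 constitutive subunits.

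Livers came from wild-type C57 BL6 mice aged 8 weeks, profiled by RNA sequencing of bulk tissue. The 4 groups were saline (n = 3), 500 mg/kg D-galactosamine plus 5 µg/kg lipopolysaccharide (GalN/LPS, n = 3), the prostaglandin E2 analogue dmPGE2 at 300 µg/kg given 1 h ahead of the same GalN/LPS (pretreated, n = 4), and 300 µg/kg dmPGE2 alone (dmPGE2, n = 3). Injections were intraperitoneal, and livers were taken 6 h after GalN/LPS. For dmPGE2 alone the labels give 6 h but no separate interval, so the time since dmPGE2 may differ from that in pretreated livers. The labels do not tell whether each library is a different animal, so the p-values below describe the spread between these samples, which may be partly technical. Galactosamine ties up uridine nucleotides of hepatocytes and so limits their RNA synthesis, which is a property of the model shared by the GalN/LPS and pretreated groups.

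The proteasome is the protease that degrades ubiquitin-tagged proteins. Its 20S core is a barrel of alpha and beta subunits, of which the beta subunits encoded by Psmb5, Psmb6 and Psmb7 carry the proteolytic sites, and the 19S cap of ATPases (Psmc genes) and non-ATPases (Psmd genes) recognises, unfolds and feeds in the substrate. Interferon and other inflammatory signals induce Psmb8, Psmb9 and Psmb10, which replace Psmb5, Psmb6 and Psmb7 in newly built particles to form the immunoproteasome, together with the activator PA28 made of Psme1 and Psme2. These changes favour the peptides that class I molecules present.

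The genome places most of the inducible genes in groups. Psmb9 (ENSMUSG00000096727, chromosome 17, 34181988 to 34187764, minus strand) and Psmb8 (ENSMUSG00000024338, chromosome 17, 34197721 to 34201454, plus strand) flank the peptide transporter gene Tap1, with 9956 bases between them, and Tap2 follows. Psme1 (ENSMUSG00000022216, chromosome 14, 55578123 to 55581529, plus strand) and Psme2 (ENSMUSG00000079197, chromosome 14, 55587441 to 55591113, minus strand) lie 5911 bases apart. Psmb10 (ENSMUSG00000031897, chromosome 8, 105935735 to 105938444, minus strand) stands alone. Coordinates are those of the deposited table (GRCm38). Tap1 overlaps Psmb9 by 212 bases on the other strand and had 1.76 times its counts, so reads of that overlap could be counted for either gene.

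RefSeq promoters (GRCm38.p6, 250 bases before to 50 after a listed start site) were found for 42 of the 50 members. The start site need not be the outer end of the gene in the deposited table. For Psmb8, Psmb9 and Psme1 the whole window lies inside the gene span given above, so positions there count from a start within it. Those of 4 of the 5 inducible genes are shown, and that of Psmb5 as the constitutive counterpart of Psmb8. Capitals mark a match on either strand to one of 4 motifs: TTCNNNGAA, the GAS motif of interferon-activated genes, GAAANNGAA, the core of the interferon-stimulated response element, TGACNNNGC, the core of the antioxidant response element, and the kappaB motif.
Psmb8, chr17:34197945-34198244, plus strand: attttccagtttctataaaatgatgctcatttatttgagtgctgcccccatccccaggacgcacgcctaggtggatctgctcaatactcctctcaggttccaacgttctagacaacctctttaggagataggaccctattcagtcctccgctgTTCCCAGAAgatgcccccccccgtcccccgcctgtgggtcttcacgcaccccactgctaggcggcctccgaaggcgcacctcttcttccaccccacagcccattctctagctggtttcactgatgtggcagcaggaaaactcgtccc
Psmb9, chr17:34187281-34187580, minus strand: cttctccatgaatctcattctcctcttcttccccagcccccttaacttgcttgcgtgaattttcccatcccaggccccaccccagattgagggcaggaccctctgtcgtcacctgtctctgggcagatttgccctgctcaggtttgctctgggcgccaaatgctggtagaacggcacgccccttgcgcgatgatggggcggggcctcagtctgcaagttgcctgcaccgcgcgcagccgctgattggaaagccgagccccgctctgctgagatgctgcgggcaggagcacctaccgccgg
Psmb10, chr8:105938343-105938642, minus strand: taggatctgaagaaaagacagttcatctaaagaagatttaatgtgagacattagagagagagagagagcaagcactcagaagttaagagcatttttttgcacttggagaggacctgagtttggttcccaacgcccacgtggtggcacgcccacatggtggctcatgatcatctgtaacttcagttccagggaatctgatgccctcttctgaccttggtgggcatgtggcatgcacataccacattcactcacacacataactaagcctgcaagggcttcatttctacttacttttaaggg
Psme1, chr14:55578244-55578543, plus strand: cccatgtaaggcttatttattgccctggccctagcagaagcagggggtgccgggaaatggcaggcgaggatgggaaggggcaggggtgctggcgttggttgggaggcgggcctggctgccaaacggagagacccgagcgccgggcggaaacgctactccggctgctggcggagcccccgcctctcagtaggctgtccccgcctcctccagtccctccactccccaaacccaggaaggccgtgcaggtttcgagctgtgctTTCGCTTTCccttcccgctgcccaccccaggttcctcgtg
Psmb5, chr14:54617946-54618245, minus strand: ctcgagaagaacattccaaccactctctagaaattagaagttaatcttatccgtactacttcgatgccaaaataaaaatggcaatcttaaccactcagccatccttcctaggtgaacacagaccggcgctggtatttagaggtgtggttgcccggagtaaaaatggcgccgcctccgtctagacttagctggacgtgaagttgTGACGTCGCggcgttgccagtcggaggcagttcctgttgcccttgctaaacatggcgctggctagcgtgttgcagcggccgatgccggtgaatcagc
The capitals in Psmb8 are a GAS match starting at position -97 from the start site, those in Psme1 a match to the interferon-stimulated core at position 10, and those in Psmb5 a match to the antioxidant response core at position -47. The window of Psmb9 contains the start of Tap1 on the other strand. Psmb9 and Psmb10 hold none of the 4 letter patterns in these windows. The 2 windows of Psme2, which are not shown, hold none either. Over all 32851 promoters, 8.30% held GAS, 8.56% the interferon-stimulated core, 12.4% the antioxidant response core and 4.51% kappaB. Among the 6 promoters of the 5 inducible genes (Psme2 has 2), GAS was in 1 and the interferon-stimulated core in 1. Among the 27 of constitutive subunits GAS was in 1 (Psmd2), the interferon-stimulated core in 4 (Psmb3, Psmb4, Psmc2 and Psmd4), the antioxidant response core in 4 (Psmb5, Psmb6, Psmc6 and Psmd12) and kappaB in 1 (Psmd12). A match describes letters and not a bound site.

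Libraries held 14829838 to 20777809 counts, and the share taken by members was 0.348 to 0.357% with saline, 0.295 to 0.323% with GalN/LPS, 0.261 to 0.305% with pretreatment and 0.321 to 0.358% with dmPGE2 alone. Levels below are CPM, counts relative to library size, scaled by the TMM factor of edgeR. This factor was lowest in pretreated libraries (0.683 to 0.830), then GalN/LPS (0.904 to 1.14), and was 1.16 to 1.28 in the other 6. Because these factors differ between groups, each comparison's counts of calls over all members are given again with plain library totals. Counts for classes and markers without such a value are by TMM. On the log2 scale the totals move the median of all genes down by 0.17 in GalN/LPS against saline, by 0.51 in pretreated against GalN/LPS and by 0.68 in pretreated against saline. Which scaling is nearer to RNA per cell was not tested. Hepatocyte markers were high in every group, with a summed level of 66997 to 217032 CPM over 8 genes. In bulk tissue, fewer cells of a type and less RNA per cell cannot be told apart.

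Per transcript length (FPKM), the constitutive catalytic subunits of saline livers were in the order Psmb5, Psmb6, Psmb7, at 107 ± 6.02, 67.5 ± 6.02 and 20.3 ± 1.78 FPKM (SD, n = 3). Psmb5 was the most abundant member. Their inducible counterparts Psmb8 and Psmb9 were far lower, at 10.7 ± 1.62 and 6.49 ± 1.72 FPKM, whereas Psmb10, at 27.9 ± 1.26 FPKM, was above Psmb7. Psme1 (44.1 ± 4.70 FPKM) and Psme2 (30.9 ± 0.544 FPKM) were both above Psme3 (13.2 ± 1.16 FPKM), which forms the nuclear relative of their activator. Psme3 serves below as their counterpart, although it is not among the 31 constitutive subunits. The immunoproteasome mRNAs were thus present in uninjured liver.

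In GalN/LPS livers all 5 inducible genes rose by TMM scaling, while none of the 14 constitutive 20S subunits passed the test. With library totals 4 of the 5 rose, and of the 14 20S subunits 0 were higher and 3 lower. Psmb8 showed the greatest rise of any member, 2.36-fold. By TMM the 19S cap was divided, with 2 of 17 subunits higher and 8 lower, and several assembly chaperones fell. With library totals 0 of the 17 were higher and 10 lower. Over all 48 members 8 were higher and 15 lower by edgeR's quasi-likelihood test with Benjamini-Hochberg adjustment over all genes. Of all genes tested, 27.4% were called higher and 25.6% lower. With library totals 5 members were higher and 20 lower, against 21.5% and 30% of all genes. Without GalN/LPS 3 the members called higher by TMM were 4.

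Psmb8, which takes the place of Psmb5, was at 32.6, 29.7 and 24.4 CPM in the saline livers, 67.1, 62.8 and 74.3 CPM after GalN/LPS, 58.0, 51.4, 44.1 and 36.4 CPM in pretreated livers and 20.4, 21.9 and 22.4 CPM after dmPGE2. On this scale each GalN/LPS value was above every pretreated value, each pretreated value above every saline value, and the dmPGE2 values lay lowest. GalN/LPS raised it by 1.24 ± 0.16 on the log2 scale (± SE, edgeR adjusted p = 9.28e-06), which placed it at percentile 82.6 of the changes of all genes, so larger rises were common.

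Psmb9, the counterpart of Psmb6, was at 23.3, 29.4 and 17.3 CPM with saline, 39.4, 40.7 and 44.0 CPM with GalN/LPS, 37.2, 32.9, 28.7 and 22.0 CPM in pretreated and 18.3, 16.9 and 18.9 CPM in dmPGE2 livers. The GalN/LPS livers stood above all others, and saline overlapped with both pretreated and dmPGE2. The rise in GalN/LPS was 0.83 ± 0.19 (edgeR adjusted p = 0.00172).

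Psmb10, the counterpart of Psmb7, was at 44.4, 46.8 and 49.2 CPM with saline, 72.5, 68.8 and 75.9 CPM with GalN/LPS, 68.5, 54.3, 54.4 and 55.7 CPM in pretreated and 32.9, 27.1 and 36.3 CPM in dmPGE2 livers. On this scale no groups overlapped, in the order GalN/LPS, pretreated, saline, dmPGE2. Its rise in GalN/LPS was 0.63 ± 0.13 (edgeR adjusted p = 0.000807).

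Psme1, the alpha subunit of PA28, was at 98.7, 104 and 85.3 CPM with saline, 129.8, 143 and 133 CPM with GalN/LPS, 176, 128, 166 and 156 CPM in pretreated and 62.4, 65.8 and 72.7 CPM in dmPGE2 livers. Psme2, the beta subunit, was at 53.7, 52.4 and 54.9 CPM, 69.9, 72.2 and 72.9 CPM, 98.1, 85.3, 93.8 and 79.7 CPM, and 45.5, 46.6 and 34.0 CPM in the same order of groups. Unlike the catalytic genes, both had their highest values in pretreated livers on this scale, with overlap between pretreated and GalN/LPS for Psme1. GalN/LPS raised Psme1 by 0.49 ± 0.14 (edgeR adjusted p = 0.00618) and Psme2 by 0.42 ± 0.13 (adjusted p = 0.0134). With library totals Psme1 passed (0.32, edgeR adjusted p = 0.046) and Psme2 did not (0.25, adjusted p = 0.16), and without GalN/LPS 3 neither passed (0.39, adjusted p = 0.0512, and 0.29, adjusted p = 0.12).

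**Figure D1:**
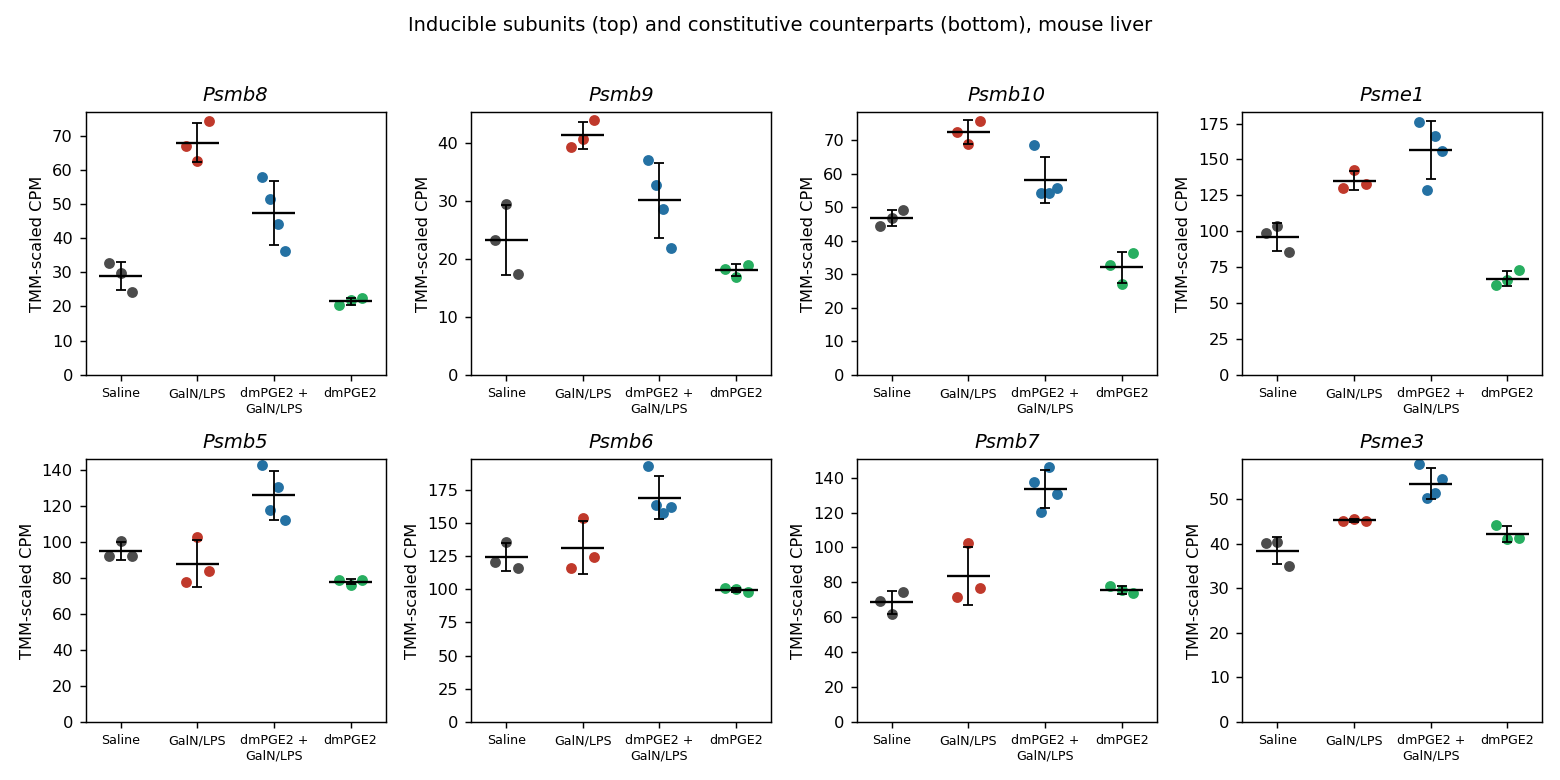
TMM-scaled CPM (linear axis from 0) of 4 inducible genes (top) and their constitutive counterparts (bottom) by treatment group. Points are libraries, and bars show the mean ± SD. Psmb8, Psmb9 and Psmb10 are highest in GalN/LPS livers, and Psmb5, Psmb6, Psmb7 and Psme3 are highest in pretreated livers, although Psmb5, Psmb6 and Psme3 were below saline there with library totals.

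The counterparts did not pass the test in GalN/LPS against saline. Psmb5 was at 92.2, 101 and 92.3 CPM with saline and 77.8, 103 and 83.7 CPM with GalN/LPS, and Psmb6 at 121, 136 and 116 CPM and 116, 154 and 125 CPM. Psmb7 was at 69.5, 61.6 and 74.3 CPM and 71.7, 102 and 76.8 CPM. GalN/LPS 2 was the highest of its group for all 3 and had the lowest TMM factor there. For these 3 the groups overlapped, with log2 changes of -0.11 ± 0.13, 0.08 ± 0.13 and 0.29 ± 0.14 (edgeR adjusted p = 0.503, 0.641 and 0.0992). Psme3 was at 40.0, 40.5 and 34.9 CPM with saline and 45.1, 45.5 and 45.0 CPM with GalN/LPS. Its groups did not overlap, but the change of 0.23 ± 0.11 did not pass (edgeR adjusted p = 0.0837). Psmb7 passed without GalN/LPS 1 (0.38, edgeR adjusted p = 0.0462).

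The median change of the inducible genes was 0.63, that of the 31 constitutive subunits -0.05 and that of all genes 0.02. With library totals these medians were 0.47, -0.22 and -0.15, and 4 inducible genes were higher. The inducible median was above both others. A change of scaling moves all genes by about the same amount (0.17 here), so the same order with totals is no separate check. Psme2b, a retrocopy of Psme2 that is 97.0% identical to it over 829 aligned bases, rose by 1.14 ± 0.19 (edgeR adjusted p = 0.000135). Reads of this gene and of Psme2 are uncertain in origin.

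Among the 19S subunits Psmc2, a ring ATPase (ENSMUSG00000028932, chromosome 5, 21785283 to 21803787), fell most. It was at 76.9, 71.8 and 74.7 CPM with saline, 34.7, 35.3 and 39.3 CPM in GalN/LPS, 32.3, 29.4, 20.9 and 26.1 CPM in pretreated and 65.3, 62.3 and 65.9 CPM in dmPGE2 livers. Both injured groups lay below both uninjured ones, and its change in GalN/LPS was -1.03 ± 0.14 (edgeR adjusted p = 1.29e-05). The lid subunit Psmd12 followed, at 64.9, 68.8 and 60.6 CPM with saline and 37.7, 35.2 and 38.0 CPM with GalN/LPS (-0.81 ± 0.11, edgeR adjusted p = 1.11e-05). By TMM 4 of the 6 ATPases fell (Psmc2, Psmc3, Psmc5 and Psmc6) and 0 rose. Of the 11 non-ATPases 4 fell (Psmd4, Psmd6, Psmd11 and Psmd12) and 2 rose.

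Those 2 were Psmd8 and Psmd13, both lid subunits. Psmd8 was at 94.4, 77.9 and 89.3 CPM with saline and 111, 135 and 119 CPM with GalN/LPS (0.48 ± 0.13, edgeR adjusted p = 0.00623), and Psmd13 rose by 0.38 ± 0.13 (adjusted p = 0.0251). With library totals neither passed edgeR's test, at 0.30 (adjusted p = 0.076) and 0.20 (adjusted p = 0.27). Psmd13 shares 342 bases with Sirt3 on the other strand.

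Genes that build the particle fell in most cases. Of the 4 chaperones that assemble the 20S core, Psmg1, Psmg2 and Psmg3 fell. Psmg3 (ENSMUSG00000029551, chromosome 5, 139823592 to 139826885) was at 7.11, 8.02 and 6.24 CPM with saline, 2.92, 1.07 and 2.97 CPM with GalN/LPS, 2.46, 1.71, 1.00 and 1.27 CPM in pretreated and 7.65, 6.91 and 7.51 CPM in dmPGE2 livers. All 7 injured livers were below all 6 uninjured ones, and the change in GalN/LPS was -1.60 ± 0.32 (edgeR adjusted p = 0.000503), the largest fall of any member, on as few as 17 counts. Of the 3 chaperones of the 19S base 2 fell, Psmd5 (-0.62 ± 0.13) and Psmd9 (-0.33 ± 0.13), but Psmd9 overlaps Hpd on the other strand, a liver gene with 53.1 times its counts, so its reads are uncertain. Psmd5 overlaps Cutal on the other strand by 573 bases, with 1.22 times its counts, and is uncertain too. The large activator Psme4 (-0.55 ± 0.12) and the inhibitor Psmf1 (-0.63 ± 0.11) fell as well.

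**Figure D2:**
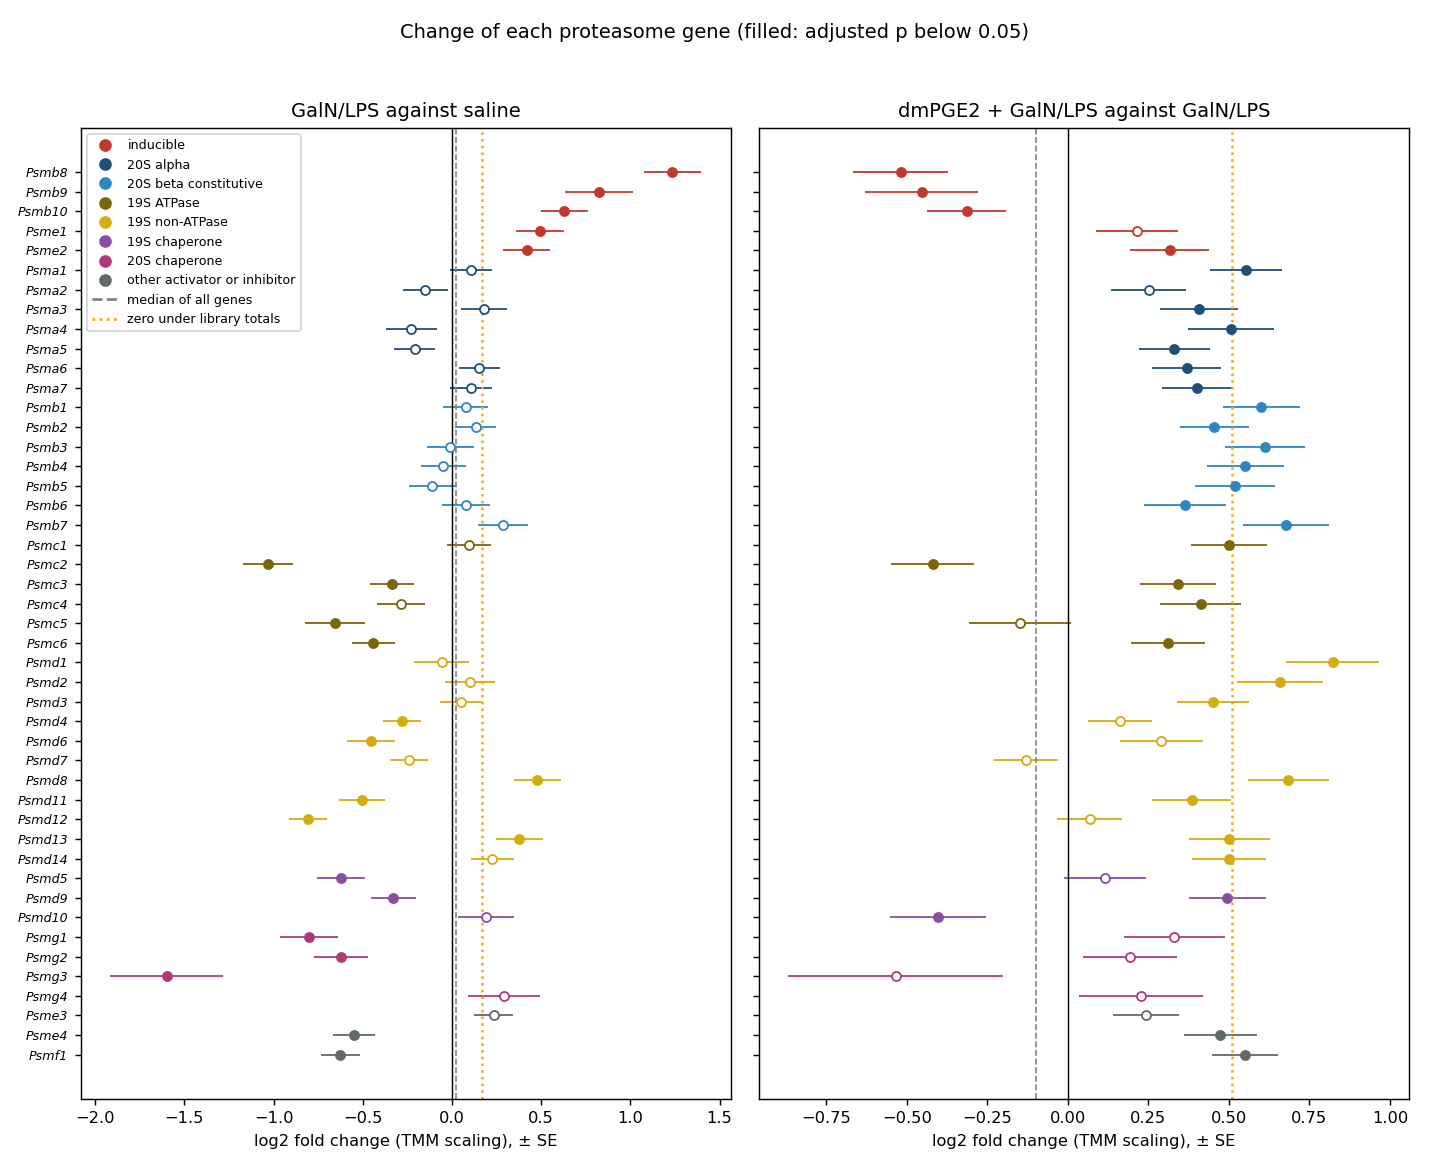
Log2 fold change ± SE (TMM scaling) of proteasome genes with at least 10 counts in every library, for GalN/LPS against saline (left) and pretreated against GalN/LPS (right), coloured by class. Psme2b is not shown. Filled points passed edgeR's test, the dashed line is the median of all genes, and the dotted line marks where a change would be 0 with library totals. On the left the 5 inducible genes lie to the right of nearly all other members, and on the right Psmb8, Psmb9 and Psmb10 lie to the left of nearly all other members.

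Proteasome factors outside the Psm names went both ways in GalN/LPS. Of 24 tested, 5 rose and 12 fell (median -0.34), and with library totals 1 rose and 12 fell. Of all genes, 27.4% were called higher and 25.6% lower (21.5% and 30% with totals). The 4 with the smallest adjusted p were the protease Ddi2, which activates the transcription factor of proteasome genes encoded by Nfe2l1 (-1.65 ± 0.12), the ubiquitin receptor Adrm1 (-0.80 ± 0.14), the stress factor Nfe2l2 (1.00 ± 0.18) and the deglycosylase Ngly1 (-0.71 ± 0.14). Genes of class I peptide loading and their inducers rose in 13 of 16 cases (median 0.89, 12 with library totals). The 4 with the smallest adjusted p were the transcription factor Irf1 (2.77 ± 0.15), the transporter subunit Tap2 (1.62 ± 0.15), the loading factor Tapbp (1.46 ± 0.13) and the class I regulator Nlrc5 (1.76 ± 0.18). These 4 rises were larger than that of any inducible proteasome gene, but they were picked from these data. The median of the list was below the rise of Psmb8 (1.24).

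Markers of other cells moved with the inducible genes. In GalN/LPS against saline the markers called higher were 7 of 7 for neutrophils, 8 of 9 for monocytes and macrophages, 5 of 7 for T and NK cells, 3 of 5 for B cells, 7 of 7 for sinusoidal endothelium, 5 of 6 for stellate cells and fibroblasts, 4 of 4 for cholangiocytes and 5 of 5 for erythroid cells and platelets. The summed neutrophil level lay between 4.34 and 16.4 CPM with saline, between 656 and 869 CPM with GalN/LPS and between 253 and 407 CPM with pretreatment. For monocytes and macrophages these ranges were 98.2 to 124 CPM, 563 to 879.6 CPM and 251 to 361 CPM. The T and NK cell sum was at most 4.22 CPM, then 17.3 to 20.7 CPM, then at most 11.6 CPM. None of the markers tested was at 0 in all libraries of these 3 groups. Of 8 hepatocyte markers 0 were higher and 1 was lower. Their part in the change of Psmb8, Psmb9 and Psmb10 was not tested.

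With dmPGE2 before GalN/LPS, the 3 inducible catalytic genes fell against GalN/LPS alone, and the constitutive subunits were higher by TMM scaling but not by library totals. By TMM 28 of 48 members were higher and 5 lower in pretreated livers by edgeR's quasi-likelihood test, where 24.4% of all genes were called higher and 30.1% lower. With library totals 0 were higher and 13 lower, against 4.31% and 47.6% of all genes. Psmb8, Psmb9 and Psmb10 fell with either scaling. Totals lower all changes here by about 0.51, so their fall with totals is no separate check. The number of members lower by TMM was 1 without GalN/LPS 3, 2 without GalN/LPS 1, pretreated 4 or dmPGE2 1, and 3 without saline 1, pretreated 3 or dmPGE2 3.

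The 5 lower members were Psmb8, Psmb9, Psmb10, Psmc2 and the chaperone Psmd10. Psmb8 fell by 0.52 ± 0.15 (edgeR adjusted p = 0.00817), Psmb9 by 0.45 ± 0.18 (adjusted p = 0.0393) and Psmb10 by 0.31 ± 0.12 (adjusted p = 0.04), and with library totals they fell by 1.03, 0.96 and 0.83. For these 3 no pretreated library overlapped with GalN/LPS, which was also so for 34 of the 48 members and 50.4% of all genes. The calls of Psmb9 and Psmb10 lay near the threshold. With 1 library left out, that of Psmb9 held in 4 of 13 cases (without saline 2, saline 3, pretreated 1 or pretreated 2; changes of -0.57 to -0.33 over all 13) and that of Psmb10 in 3 of 13 (without GalN/LPS 2, pretreated 1 or dmPGE2 2; -0.40 to -0.28).

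The PA28 genes did not follow. Psme1 was at 0.21 ± 0.13 and did not pass (edgeR adjusted p = 0.165), and it turned to -0.30 with library totals (adjusted p = 0.042). Psme2 rose by 0.32 ± 0.12 by TMM (edgeR adjusted p = 0.0398) and turned to -0.20 with library totals (adjusted p = 0.24). Psme2 did not pass without any 1 of the GalN/LPS libraries, pretreated 1 or pretreated 3 (0.27 to 0.33 in these 5). A measure chosen after seeing the data, the change less the median change of the constitutive subunits, is free of the scaling. In pretreated against GalN/LPS it was -0.93 (Psmb8), -0.87 (Psmb9), -0.73 (Psmb10), -0.20 (Psme1) and -0.10 (Psme2).

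All 7 constitutive beta subunits and 6 of 7 alpha subunits were higher in pretreated than in GalN/LPS livers by TMM scaling, with a median of 0.48 over these 14 against -0.10 for all genes, but with library totals 0 were higher, 1 was lower and the median was -0.03 against -0.61. Psmb7 was at 137, 120.0, 146 and 131 CPM in pretreated livers, above each GalN/LPS value, and rose by 0.68 ± 0.13 (edgeR adjusted p = 0.000791), or 0.18 with totals (adjusted p = 0.19). Psmb5, at 143, 118, 131 and 113 CPM, rose by 0.52 ± 0.12 (edgeR adjusted p = 0.00284), or 0.02 with totals (adjusted p = 0.9). Psmb6, at 193, 164, 158 and 162 CPM, rose by 0.36 ± 0.13 (edgeR adjusted p = 0.0238), and this turned to -0.13 (adjusted p = 0.36) with totals and did not pass without GalN/LPS 1, GalN/LPS 3 or pretreated 1 (0.28, 0.32 and 0.29). These genes lay above the median of all genes, in an order that a change of scaling cannot alter. Hepatocyte markers moved with them: 7 of 8 were higher and 0 lower by TMM (median 0.81), and 2 were higher with library totals. Their part in the change of the constitutive subunits was not tested. Psmb7 shares 6571 bases of its gene span with Nek6 on the other strand, which had 0.684 times its counts, so its reads, and the ratios that use it below, are uncertain.

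The 19S cap had 11 of 17 subunits higher and 1 lower by TMM scaling, and 0 higher and 5 lower with library totals. The large scaffold subunits Psmd1 (0.82 ± 0.14) and Psmd2 (0.66 ± 0.13) and the lid subunit Psmd8 (0.68 ± 0.12) had the largest rises, with values of 0.32, 0.17 and 0.18 by totals, which did not pass. Psmd8 reached 208, 188, 206 and 179 CPM, above all GalN/LPS values. Psmc2 fell further below its GalN/LPS level, by 0.42 ± 0.13 (edgeR adjusted p = 0.0132; -0.37, adjusted p = 0.0613 without GalN/LPS 3).

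Factors outside the Psm names were divided in pretreated against GalN/LPS livers, with 6 of 24 higher and 7 lower (0 and 12 with library totals). Zfand5 (-1.70 ± 0.14), which activates the proteasome, the transcription factors Nfe2l2 (-1.67 ± 0.17) and Nfe2l1 (-1.35 ± 0.16), and the unfolding ATPase Vcp (0.61 ± 0.12, 0.11 with totals) had the smallest adjusted p. In the class I list 5 of 16 rose and 8 fell (1 and 11 with totals). Irf1 (-2.26 ± 0.14), Tap1 (-1.57 ± 0.18) and the interferon gamma receptor Ifngr1 (-1.33 ± 0.18) fell and the peptide-trimming enzyme Erap1 rose (0.90 ± 0.13). Markers called lower were 7 of 7 for neutrophils, 8 of 9 for monocytes and macrophages, 7 of 7 for endothelium, 5 of 5 for B cells, 4 of 7 for T and NK cells, 5 of 6 for stellate cells and fibroblasts, 3 of 4 for cholangiocytes and 3 of 5 for erythroid cells and platelets, beside the falls of Psmb8, Psmb9 and Psmb10, and their part in these was not tested.

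Ratios within a library need no scaling between libraries. The FPKM of Psmb8 over that of Psmb5 was 0.116, 0.0969 and 0.0867 with saline, 0.283, 0.201 and 0.292 with GalN/LPS, 0.134, 0.143, 0.111 and 0.106 with pretreatment and 0.0851, 0.0942 and 0.0935 with dmPGE2 alone. GalN/LPS stood above all others, and pretreated overlapped with saline, with a log2 difference of 0.30 ± 0.16 (SE) from it. The log2 ratio was 1.36 ± 0.21 (SE) higher in GalN/LPS than in saline and differed by -1.06 ± 0.20 between pretreated and GalN/LPS livers.

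For Psmb9 over Psmb6 the ratio was 0.0986, 0.111 and 0.0764 with saline, 0.174, 0.135 and 0.181 with GalN/LPS, 0.0983, 0.103, 0.0930 and 0.0693 with pretreatment and 0.0926, 0.0862 and 0.0987 with dmPGE2 alone. Again GalN/LPS alone stood apart, with log2 differences of 0.78 ± 0.21 from saline and -0.85 ± 0.18 for pretreated from GalN/LPS. Psmb10 over Psmb7 was 1.28, 1.52 and 1.33 with saline, 2.03, 1.35 and 1.98 with GalN/LPS, 1.00, 0.908, 0.746 and 0.856 with pretreatment and 0.845, 0.722 and 0.989 with dmPGE2 alone. Here pretreated lay below saline as well, by a log2 difference of -0.66 ± 0.12, and dmPGE2 alone did too (-0.70 ± 0.15). GalN/LPS overlapped with saline through GalN/LPS 2 (0.35 ± 0.21, or 0.55 without that library).

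The mean of Psme1 and Psme2 over Psme3 behaved differently. It was 2.77, 2.80 and 2.95 with saline, 3.22, 3.42 and 3.32 with GalN/LPS, 3.45, 3.13, 3.68 and 3.13 with pretreatment and 1.80, 2.02 and 1.87 with dmPGE2 alone. The pretreated livers overlapped with GalN/LPS, with a log2 difference of 0.01 ± 0.06, and both were above saline, while dmPGE2 alone was below it by a difference of -0.58 ± 0.06. In 16 such comparisons (4 ratios by 4 contrasts), exact two-sided permutation tests cannot go below p = 0.1 for 3 against 3 or p = 0.0571 for 4 against 3, and the smallest Benjamini-Hochberg value was 0.16, so none could pass 0.05.

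**Figure D3:**
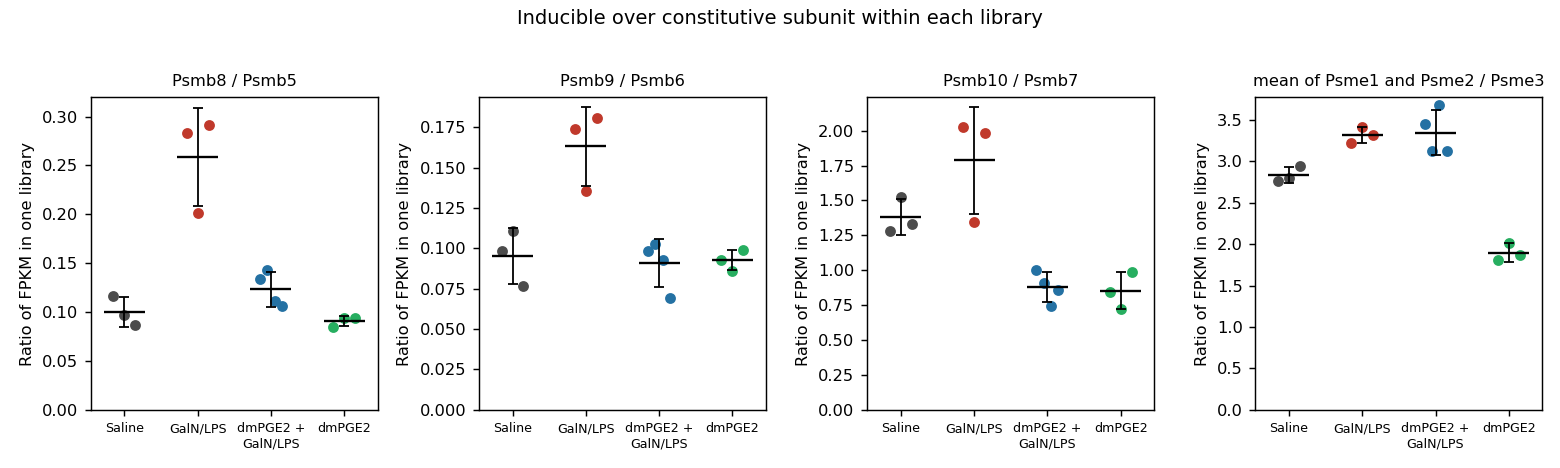
Ratio of an inducible gene's FPKM to that of a constitutive subunit, or to that of Psme3 for PA28, within each library (linear axis from 0), by treatment group. Points are libraries, bars the mean ± SD. For the Psmb8 and Psmb9 ratios, GalN/LPS livers lie above all others and pretreated livers overlap with saline. The Psmb10 ratio is below saline in pretreated and dmPGE2 livers, and the PA28 ratio is as high in pretreated as in GalN/LPS livers.

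Against saline, pretreated livers had 25 of 48 members higher and 8 lower by TMM scaling with edgeR's quasi-likelihood test, where 34.8% of all genes were called higher and 30.2% lower. With library totals 2 were higher (Psmb7 and Psmd8) and 22 lower, against 11.8% and 47.6% of all genes. The contrasts of pretreated with saline and with GalN/LPS share the pretreated libraries. Markers called higher in the same comparison were 8 of 8 for hepatocytes (median 0.85; 1 with library totals), 7 of 7 for neutrophils, 7 of 9 for monocytes and macrophages, 7 of 7 for endothelium, 4 of 7 for T and NK cells, 4 of 5 for erythroid cells and platelets, 1 of 6 for stellate cells and fibroblasts and 1 of 4 for cholangiocytes, while 2 of 5 were lower for B cells. With library totals the markers higher were 7 for neutrophils, 6 for monocytes and macrophages and 3 for endothelium. They were 2 for T and NK cells, 3 for erythroid cells and platelets and 0 for stellate cells and for cholangiocytes. Then 1 monocyte and macrophage marker and 1 cholangiocyte marker were lower. The part of these cell types in the changes of the members was not tested. By TMM, Psmb8 rose by 0.72 ± 0.15 (edgeR adjusted p = 0.000651), Psme1 by 0.71 ± 0.13, Psme2 by 0.73 ± 0.12 and Psmb10 by 0.31 ± 0.12, and Psmb9, at 0.37 ± 0.18 (adjusted p = 0.0811), did not pass. Psmb10 did not pass without saline 1, saline 2, GalN/LPS 3 or pretreated 1 (0.19 to 0.32), and Psmb9 passed without saline 2 or pretreated 4 (0.57 and 0.50). With totals none of the 5 was higher (Psmb8 0.05, Psme1 0.02, Psme2 0.05, Psmb9 -0.30), and Psmb10 turned to -0.37 (edgeR adjusted p = 0.046).

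Psmb7 (0.96 ± 0.14), Psmd8 (1.16 ± 0.13) and Psmd13 (0.88 ± 0.13) were the members highest above saline, while Psmb5 (0.41 ± 0.12), Psmb6 (0.45 ± 0.13) and Psme3 (0.48 ± 0.10) passed by TMM and turned to -0.27, -0.23 and -0.21 with totals. Psmb5 did not pass without GalN/LPS 3 (0.28), a library that enters only through the shared spread and scaling. Library totals lower all changes in this comparison by about 0.68, so the largest falls against saline could only grow with them. Psmg3 fell by 2.13 ± 0.31 (2.81 with totals), Psmc2 by 1.45 ± 0.13 (-2.13 with totals) and the ATPase Psmc5 by 0.81 ± 0.16 (1.48 with totals). Psmc5 was at 64.7, 65.6 and 62.8 CPM in saline and 48.9, 39.2, 26.5 and 32.3 CPM in pretreated livers, with no overlap.

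In the same comparison 6 of the 24 outside factors rose and 12 fell by TMM (0 and 18 with library totals), with Ddi2 at -1.85 ± 0.11, Nfe2l1 at -1.65 ± 0.16, Zfand5 at -1.44 ± 0.14 and the nuclear import factor Akirin2 at -1.81 ± 0.18. Of all genes, 34.8% were called higher and 30.2% lower (11.8% and 47.6% with totals). Of the class I list 11 of 16 rose and 0 fell (7 and 3 with totals), with Erap1 at 1.52 ± 0.13, the chaperone Canx at 1.27 ± 0.14, Tapbp at 1.11 ± 0.12 and the class I heavy chain H2-D1 at 1.09 ± 0.14. H2-D1 and H2-K1 have near relatives, which leaves the origin of their reads uncertain.

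Relative to saline, the constitutive subunits diverged more from each other in injured livers than with dmPGE2 alone. Each subunit's level was set relative to the 31 constitutive subunits of its library and to saline. The SD of these relative levels across the subunits was 0.34 with GalN/LPS, 0.57 with pretreatment and 0.17 with dmPGE2 alone, on the log2 scale. It was larger among the 17 subunits of the 19S (0.41 in GalN/LPS, 0.71 in pretreated) than among the 14 of the 20S (0.15 and 0.23). The 20S had the higher medians (0.18 and 0.24) and the 19S the lower (-0.17 and -0.28). As levels are set against the mean of all 31, a class above it goes with another below. Over all genes tested, log2 changes against saline had a larger SD of 1.56 (GalN/LPS), 1.36 (pretreated) and 0.49 (dmPGE2 alone). Relative to the others, Psmc2 was at -0.92 in GalN/LPS and -1.74 in pretreated livers, Psmc5 at -0.55 and -1.12, Psmd12 at -0.70 and -1.01, and Psmd8 at 0.59 and 0.89. These values are a description without a test.

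**Figure D4:**
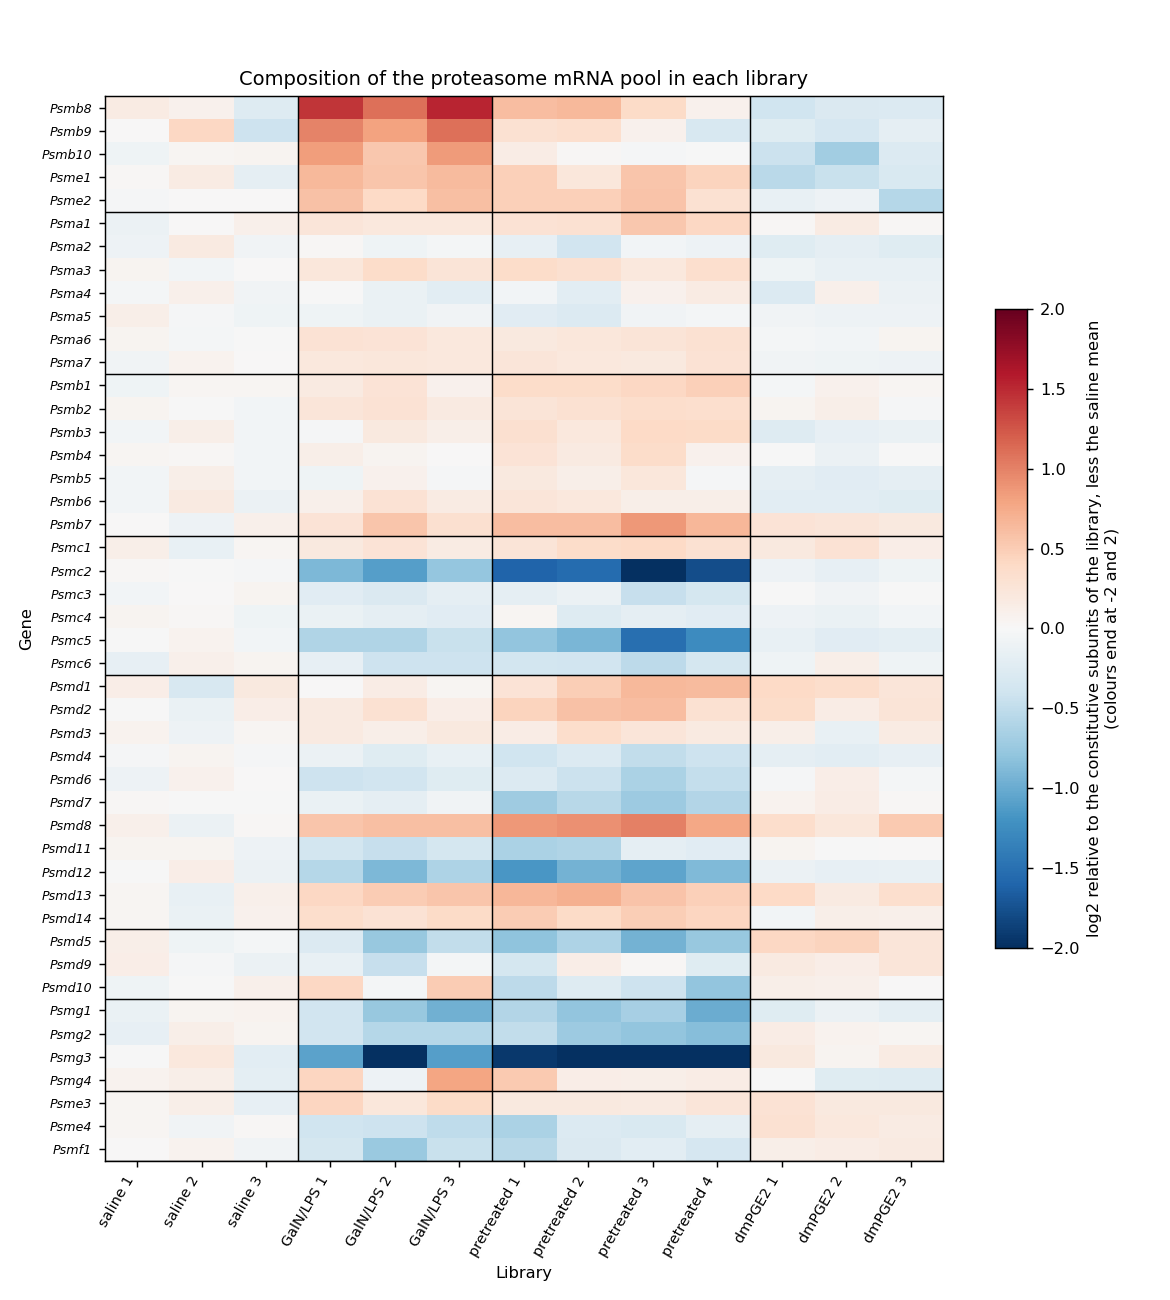
Level of proteasome genes relative to the constitutive subunits of their library, less the saline mean, on the log2 scale (red higher, blue lower), with libraries in columns and genes grouped by class in rows. Psmb8, Psmb9 and Psmb10 are reddest in the 3 GalN/LPS libraries, and Psmc2, Psmc5, Psmd12 and Psmg3 are blue in all 7 injured libraries.

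Given alone, dmPGE2 changed no member past the test. By edgeR's quasi-likelihood test 0 of 48 members were higher and 0 lower, and 0% of all genes were called in either direction with either scaling (0% higher and 0% lower). At an unadjusted p under 0.05 there were 10 members, or 4 with library totals, against 13.9% and 12.4% of all genes. DESeq2 called 2 members and 1.09% of all genes lower, the members being Psmb10 (-0.55, adjusted p = 0.0202) and Psme1 (-0.53, adjusted p = 0.0228). The 5 inducible genes had changes of -0.42 ± 0.16 (Psmb8, edgeR adjusted p = 0.256), -0.37 ± 0.19 (Psmb9, 0.4), -0.54 ± 0.13 (Psmb10, 0.095), -0.52 ± 0.14 (Psme1, 0.12) and -0.35 ± 0.13 (Psme2, 0.241). Their median was -0.42, against -0.10 for constitutive subunits and 0.02 for all genes, and 4 of the 5 did not overlap with saline, against 24 of 48 members and 26.3% of all genes. In the counterparts the changes were -0.29 (Psmb5), -0.32 (Psmb6), 0.14 (Psmb7) and 0.13 (Psme3), and none passed.

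Of the factors outside the Psm names, 0 of 24 passed after dmPGE2 alone with edgeR's test, nor did any of the 16 class I genes. Among those with the smallest adjusted p were the ubiquitin ligase Ube3c (0.49 ± 0.11), the small 19S subunit Sem1 (-0.40 ± 0.13), the zinc finger protein Zfand2a (0.39 ± 0.18) and Adrm1 (-0.26 ± 0.13) in the first list, and Erap1 (0.38 ± 0.13), Irf1 (-0.30 ± 0.15) and Tapbp (-0.25 ± 0.13) in the second.

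The interaction subtracts the change by dmPGE2 without injury from its change with injury. It passed for 24 of 48 members by TMM, all with a positive sign, where 15.4% of all genes were called higher and 19.6% lower. With library totals 0 were higher and 5 lower (Psmc2, Psmd5, Psmd7, Psmd10 and Psme3), against 1.27% and 36.5% of all genes. All 14 constitutive 20S subunits passed by TMM (median 0.60), led by Psmb3 (0.88 ± 0.18, edgeR adjusted p = 0.0029) and Psmb5 (0.80 ± 0.18, adjusted p = 0.00485), and with totals the median was 0.03 and none passed. Psme1 (0.73 ± 0.19) and Psme2 (0.67 ± 0.18) passed by TMM and not with totals (0.15 and 0.09). For Psmb8, Psmb9 and Psmb10 the interaction was -0.10 ± 0.22, -0.08 ± 0.26 and 0.23 ± 0.18 and did not pass. The number of members with a positive interaction was 13 without saline 1, 14 without GalN/LPS 1 and 12 without GalN/LPS 3. The possible difference in the time since dmPGE2 applies to these values.

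In the outside factors 3 of 24 interactions were higher and 5 lower (0 and 10 with totals), with Nfe2l2 at -1.78 ± 0.25, Zfand5 at -1.43 ± 0.21, Nfe2l1 at -1.49 ± 0.23 and Vcp at 0.60 ± 0.17. In the class I list 2 of 16 were higher and 3 lower (0 and 9 with totals), with Irf1 at -1.96 ± 0.20, Ifngr1 at -1.34 ± 0.27, Tap1 at -1.33 ± 0.27 and the heavy chain H2-K1 at 0.64 ± 0.22. Of all genes, 15.4% were called higher and 19.6% lower (1.27% and 36.5% with totals). By TMM the counts of both lists lie near these shares.

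Of the members restricted to other tissues or matched by name alone, Psmb11, the catalytic subunit of the thymus, had 0 counts in every library, which allows up to 3 counts in each. Psmc3ip, a meiosis factor that is not a proteasome subunit, had 75 counts in all and was not tested. Psma8, the alpha subunit of the testis, had 4 to 27 counts per library and passed no comparison.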

How the data were processed

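Mouse liver RNA was sequenced in 13 libraries of 4 groups. The authors deposited raw read counts per Ensembl gene, checked here to be whole numbers, and FPKM of the same libraries. The deposited FPKM are these counts over gene length, with a further divisor for each library that was 0.706 to 1.28 times its total. HISAT2 and GRCm38/mm10 are named per the submitters' processing notes. Of the counter, gene models and strand setting nothing is stated in these sources, so reads of genes that overlap on opposite strands cannot be told apart. Group name and number tied each table column to its sample, and the 3 columns named ALF were taken as GalN/LPS. The series text speaks of AILI mice, and the sample labels were followed.

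One edgeR 4.0.16 model in R 4.3.3 took all 13 libraries (filter by group, TMM factors, a mean per group), with the two-sided quasi-likelihood F test and Benjamini-Hochberg adjustment at 0.05 over 14280 genes, which held 99.9% of counts. Library depth of 14829838 to 20777809 counts limits members with few counts, such as Psmg3 and Psma8. Its common dispersion was 0.0390, and each gene had 9 residual plus 6.80 prior degrees of freedom. The script was tested on simulated data. Ratios were taken within a library from deposited FPKM and compared with exact permutation tests. Alternatives were library totals, RLE and upper quartile factors, DESeq2 1.42.0, other filters, limma 3.58.1 on log2 FPKM with a pseudocount of 1 or 0.1, the compared groups alone, a replicate block and each library left out. Equal replicate numbers gave no sign of pairing, since 0 of 18 same-number pairs deviated together with a correlation over 0.1. With so few libraries per group this cannot exclude shared handling. No pair of replicates agreed within sampling noise.

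The genes named were the 5 inducible genes, their 4 counterparts, members that failed the filter or match by name alone, the 3 largest changes each way per comparison and the 4 smallest adjusted p per pathway list. A result for 1 gene of the class I list is not reported here. Other members were named after their values were seen. The members and lists were chosen with earlier results of these data known.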

Additional observations from a re-analysis of the deposited data

Results flagged for a closer look

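Among 52 sets of 4 pretreated values examined, 4 had a library far from the other 3, where chance gives about 1 in 20. Pretreated 1 was far above the others for Psmb10 (68.5 CPM, the others 54.3 to 55.7 CPM) and for Psmb6 (193 CPM, the others 158 to 164 CPM). The same library was far above the others for Psmg2 (13.4 CPM) and Psmg4 (15.3 CPM).

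The effect of dmPGE2 differed between injured and uninjured livers, by the interaction in edgeR's quasi-likelihood test with TMM scaling, for 6 of the named members: Psmb3 (0.88), Psmb5 (0.80), Psmb6 (0.68), Psmb7 (0.53), Psme1 (0.73) and Psme2 (0.67). With library totals none of the 6 passed and Psmb7 turned to -0.034. With 1 library left out, the call of Psmb7 was lost in 10 of 13 cases (0.43 to 0.71 over all 13), and held without saline 2, GalN/LPS 2 or pretreated 2.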

How the results depend on the processing

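With library totals in place of TMM, members higher and lower became 5 and 20 in GalN/LPS against saline, 0 and 13 in pretreated against GalN/LPS, 2 and 22 in pretreated against saline, and 0 and 5 for the interaction. Of the genes named for each comparison, 9 results that passed under either scaling turned sign with totals. In pretreated against GalN/LPS these were Psme1 (-0.30), Psme2 (-0.20) and Psmb6 (-0.13). In pretreated against saline they were Psmb10 (-0.37), Psmb5 (-0.27), Psmb6 (-0.23) and Psme3 (-0.21), and for the interaction Psmb7 (-0.034) and Psme3 (-0.47). Other members turned sign too. In pretreated against GalN/LPS the median of the 7 alpha subunits, 6 of them higher by TMM, went from 0.40 to -0.11 with totals. Genes that passed under neither turned sign as well, such as Psmb9 in pretreated against saline (-0.30). With no filter on low counts, which tests more genes, 4 were higher in GalN/LPS against saline, 18 higher and 3 lower in pretreated against GalN/LPS, 16 higher in pretreated against saline and 7 higher for the interaction. DESeq2 called 2 lower after dmPGE2. With only the groups compared in the fit, 3 were lower in pretreated against GalN/LPS. With a replicate block this was 2 and the interaction gave 12 higher. Equal numbers gave no sign of pairing, which does not exclude it. With 1 library left out, members higher in GalN/LPS against saline were 4 to 9, members lower in pretreated against GalN/LPS 1 to 5 and members higher for the interaction 12 to 29. Psmb6 in GalN/LPS against saline (-0.055 to 0.16) and the interactions of Psmb8 (-0.21 to 0.022) and Psmb9 (-0.27 to 0.10), none of which passed, changed sign among these fits. The log2 ratio of Psmb9 to Psmb6 ranged from -0.18 to 0.089 for dmPGE2 against saline and from -0.22 to 0.057 for pretreated against saline, and that of PA28 to Psme3 from -0.038 to 0.0403 for pretreated against GalN/LPS. The other 13 ratio differences kept their sign. RLE and upper quartile factors and limma on FPKM turned no named gene's sign. Except where the setting itself removes genes or samples, the cause was not tested. The FPKM denominators lie near the TMM factors and are no separate check on scaling.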
